A study of Mus musculus with 6 samples.

Results

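The Mthfd genes encode the enzymes that interconvert folate-bound one-carbon units in the cytosol and in mitochondria. They were chosen by name, as a gene family, with earlier results of these data known: Mthfd1, Mthfd1l, Mthfd2 and Mthfd2l. All 4 were found, each on 1 transcript cluster (the set of probes that reads 1 gene on this array), among the 22180 genes that had a cluster with a single symbol. The arrays were hybridised with RNA from colonic mucosa of 6 male BALB/c mice, 1 array per mouse.

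Of these mice, 4 were wild type (WT, Mthfd1S+/+) and 2 were heterozygous for the synthetase-deficient allele (Mthfd1S+/-), all backcrossed for at least 10 generations. Both groups had received azoxymethane (AOM, a colon carcinogen) once at 6 mg/kg and then 3% dextran sulfate sodium (DSS, an agent that causes colitis) in 2 cycles of 4 days that began 1 and 4 weeks later. The mucosa was labelled normal, lay beside a tumour and was taken in week 13. The protocol puts the mice at 3 months when AOM was given, whereas the age field says 7 months. The series holds no untreated mouse, so each comparison below is between genotypes after AOM and DSS. The labels name a deficiency of the synthetase but not how the allele was made or what it does to the transcript, so the Mthfd1 level does not check the genotypes.

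Tetrahydrofolate carries one-carbon units at several oxidation states, which cells use to build purines, thymidylate and methionine. In mammals MTHFD1 is a cytosolic enzyme with dehydrogenase, cyclohydrolase and synthetase activities, and its synthetase joins formate to tetrahydrofolate. Mitochondria oxidise one-carbon units from serine with MTHFD2 or MTHFD2L, which are dehydrogenases and cyclohydrolases, and MTHFD1L releases the formate that the cytosolic synthetase takes up. MTHFD2 is best known from embryonic and dividing cells, and MTHFD2L is its relative in adult tissues.

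The upstream sequences of Mthfd1 and Mthfd1l are given because these are the genes of the cytosolic and the mitochondrial synthetase, the activity that the allele affects and its mitochondrial counterpart. Each is the 250 bases before the RefSeq transcript start in the build GRCm38.p6, plus strand, 5′ to 3′, at chr12:76254982-76255231 for Mthfd1 and chr10:3972825-3973074 for Mthfd1l. Capitals mark the GC box (GGGCGG) and the CCAAT box (CCAAT) on either strand.
Mthfd1: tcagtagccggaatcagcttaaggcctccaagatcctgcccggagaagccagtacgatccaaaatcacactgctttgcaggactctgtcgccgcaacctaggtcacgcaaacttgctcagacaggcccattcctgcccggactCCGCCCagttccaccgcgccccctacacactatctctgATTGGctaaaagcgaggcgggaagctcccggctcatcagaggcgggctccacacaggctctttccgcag
Mthfd1l: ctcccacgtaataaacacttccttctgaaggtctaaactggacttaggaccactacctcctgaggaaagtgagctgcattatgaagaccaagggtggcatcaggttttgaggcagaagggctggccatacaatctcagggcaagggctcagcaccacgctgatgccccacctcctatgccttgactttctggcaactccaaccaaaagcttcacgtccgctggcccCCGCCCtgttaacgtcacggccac
Both held 1 GC box on the reverse strand, with its first base 107 bases before the start in Mthfd1 and 24 bases before it in Mthfd1l. Mthfd1 also held 1 CCAAT box in reverse, 69 bases before the start. The same stretch of Mthfd2 held 3 CCAAT boxes and no GC box, and that of Mthfd2l held neither. None of the 4 held an E-box (CACGTG) or the letters TGATGNAA of an ATF4 composite element, and no match overlapped another. Among all 32851 upstream stretches of this length, 32.7% held the GC box, 33.8% the CCAAT box, 6.02% the E-box and 3.45% TGATGNAA. These matches describe the letters only.

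The mucosa carried high levels of its defining epithelial genes: all 10 absorptive colonocyte markers lay between percentiles 92.1 and 99.8 of the 23521 tested clusters and all 9 goblet cell markers at or above percentile 94.1. Smooth muscle markers were high as well (median percentile 97.4), so the tissue was not epithelium alone. In Mthfd1S+/- mouse 2 all 12 smooth muscle markers lay above the range of the WT mice, while in mouse 1 none did. Of all clusters 23.1% lay above that range in mouse 2 and 23.7% in mouse 1. The mean of the smooth muscle markers, with each gene centred over the 6 mice, was 0.41 in Mthfd1S+/- mouse 2 and -0.068 in mouse 1. In the WT mice it lay between -0.26 and 0.093. Fibroblast markers had a higher mean in Mthfd1S+/- mucosa for 8 of 8 genes and neuron and glia markers for 8 of 9, against 54.0% of all clusters. The centred fibroblast mean was 0.071 and 0.262 in Mthfd1S+/- mice 1 and 2, and -0.345 to 0.107 in WT mice. For neurons and glia it was 0.018 and 0.298, and -0.268 to 0.111 in WT mice. Adipocyte markers had a lower mean for 7 of 7 (median log2 difference -0.89), against 46.0% of all clusters. The centred adipocyte mean was -0.628 and -0.517 in Mthfd1S+/- mice 1 and 2, and -0.406 to 1.254 in WT mice. The adipocyte markers lay below the WT range for 4 of 7 genes in Mthfd1S+/- mouse 1 and 5 of 7 in mouse 2. Of all clusters 17.0% and 21.9% did. Absorptive colonocyte markers had a lower mean in Mthfd1S+/- mucosa for 9 of 10 genes and goblet cell markers for 7 of 9. Their median log2 differences were -0.045 and -0.011. B and plasma cell markers had a lower mean for 6 of 7 (median log2 difference -0.094). T and NK cell markers had a lower mean for 4 of 10 and macrophage markers for 3 of 8. The part of these lists in the Mthfd values was not tested. In a bulk tissue, fewer cells of a type and less RNA per cell cannot be told apart. In these data 0 of 23521 clusters (0%) passed an adjusted p of 0.05 for genotype in limma, a linear model with a spread shared across clusters, and 5.79% had an unadjusted p under 0.05, so none of the Mthfd genes was called.

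Mthfd1, the cytosolic trifunctional enzyme and the gene that carries the allele, was at 7.64, 7.63, 7.50 and 7.75 on the log2 scale in WT mice 1 to 4, and at 7.96 and 7.63 in Mthfd1S+/- mice 1 and 2. Mouse 1 of the heterozygotes was the highest of all 6, and mouse 2 lay inside the WT range. In mouse 1 the level was 0.33 above the WT mean, and in mouse 2 it was 0.002 above it. The mean was 7.63 ± 0.10 (SD, n = 4) for WT mice, and 7.79 ± 0.23 (SD, n = 2) for the Mthfd1S+/- mice. Their difference on the log2 scale was 0.17 ± 0.12 (SE), or 1.12-fold, with a limma adjusted p of 0.890. The 95% interval ran from 0.933-fold to 1.35-fold, so a 2-fold fall of the transcript lay outside it. With the smooth muscle mean in the model the difference was 0.26, at an adjusted p of 0.985 in limma. Without Mthfd1S+/- mouse 2 the difference was 0.33, at an adjusted p of 0.830 in limma, and without mouse 1 it was 0.0024.

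Mthfd1l, the mitochondrial synthetase, was at 7.14, 6.77, 7.25 and 7.29 in WT mice 1 to 4, and at 7.15 and 6.43 in Mthfd1S+/- mice 1 and 2. The Mthfd1S+/- mice lay on both sides of the lowest WT mouse, and mouse 2 was the lowest of all 6. The means were 7.11 ± 0.24 (SD, n = 4) and 6.79 ± 0.51 (SD, n = 2), a log2 difference of -0.32 ± 0.21 (SE) with an adjusted p of 0.881 in limma. The point estimate was the largest of the 4 genes, and 4.12% of all clusters had a larger one in either direction. It rested on 1 mouse: without Mthfd1S+/- mouse 2 the difference was 0.042, and without mouse 1 it was -0.68 (limma adjusted p 0.487).

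Mthfd1l was also the most variable of the family. Its SD within genotypes, pooled over both, was 0.33, against a median of 0.11 over the 3796 clusters within 0.5 of its level, and 97.6% of those clusters varied less. The 2 Mthfd1S+/- mice differed by 0.73 on the log2 scale, and only 1.15% of the tested clusters had a wider gap between them. The 4 WT mice spanned 0.52, where 10.0% of clusters spanned more. The smooth muscle mean was -0.26 in WT mouse 2 and 0.41 in Mthfd1S+/- mouse 2, the lowest mice for Mthfd1l in their genotypes. Beyond the model that follows, the part of smooth muscle in the Mthfd1l values was not tested. When the smooth muscle mean was added to the model, the Mthfd1l difference was -0.22 (limma adjusted p 1.00).

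Mthfd2, the mitochondrial dehydrogenase and cyclohydrolase, was at 6.73, 6.57, 6.68 and 6.45 in WT mice 1 to 4 and at 6.47 and 6.44 in the Mthfd1S+/- mice. Both heterozygotes were near the low end of the WT range: WT mouse 4 lay between them. The means were 6.61 ± 0.12 (SD, n = 4) and 6.45 ± 0.016 (SD, n = 2), with a log2 difference of -0.15 ± 0.099 (SE) and an adjusted p of 0.880 in limma. The 2 Mthfd1S+/- mice differed by 0.022, and 91.3% of clusters had a wider gap between these mice. Here the difference had the same sign with either Mthfd1S+/- mouse left out, at -0.16 without mouse 1 and -0.14 without mouse 2.

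Mthfd2l, the other mitochondrial dehydrogenase and cyclohydrolase, was at 6.60, 6.78, 6.67 and 6.62 in the WT mice and at 6.75 and 6.56 in the Mthfd1S+/- mice. The heterozygotes lay at opposite ends of the WT values, mouse 1 inside their range and mouse 2 just below it. The means were 6.66 ± 0.080 (SD, n = 4) and 6.66 ± 0.13 (SD, n = 2), with a log2 difference of -0.0068 ± 0.096 (SE), an adjusted p of 0.995 in limma and a 95% interval from 0.855-fold to 1.16-fold. Its sign turned to positive when arrays were centred on their medians (0.020) or quantile normalized again (0.021).

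**Figure D1:**
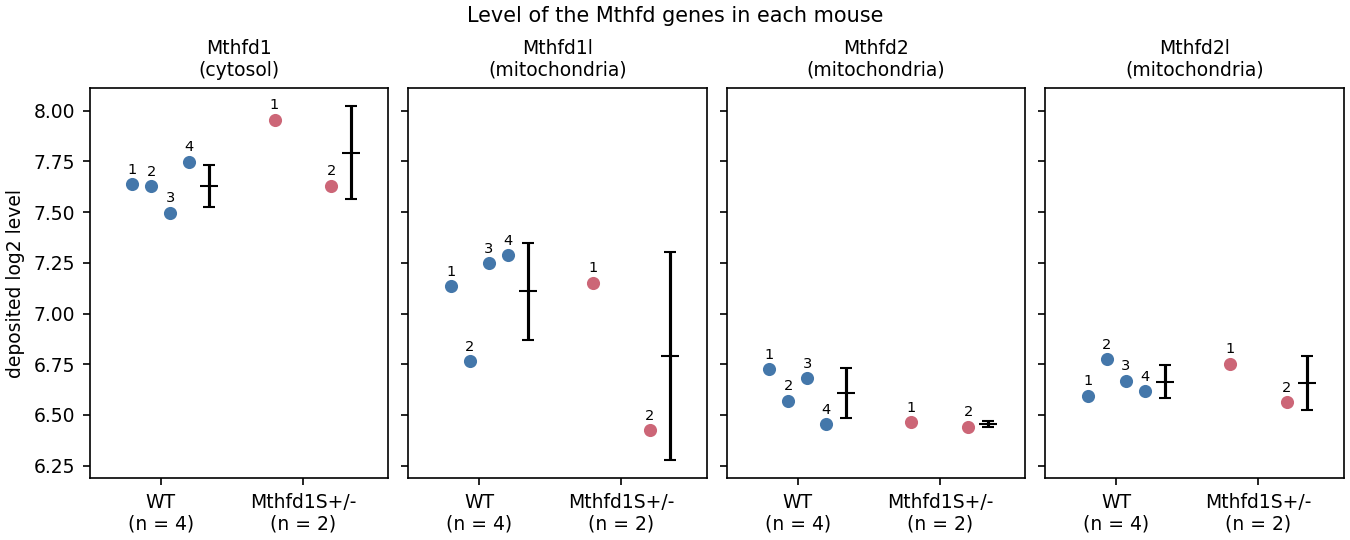
Deposited log2 level (vertical axis) of each Mthfd gene in each of the 6 mice (points, numbered by mouse), with the mean and SD of each genotype beside them (black). The 2 Mthfd1S+/- mice are 0.73 apart for Mthfd1l and 0.022 apart for Mthfd2, and levels of different genes are not comparable because their probes differ.

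An exact two-sided permutation test over the 15 splits of the 6 arrays gave p values of 0.4 for Mthfd1, 0.333 for Mthfd1l, 0.2 for Mthfd2 and 1.0 for Mthfd2l, where 0.0667 is the smallest p this design allows. For none of the 4 genes were the genotypes without overlap, as they were for 14.0% of all clusters. The cytosolic gene had a positive difference and the 3 mitochondrial genes had negative ones, that of Mthfd2l being near 0. Over all clusters 54.0% had a positive and 46.0% a negative difference, with a median of 0.012. Whether the cytosolic and the mitochondrial differences differ from each other was not tested.

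**Figure D2:**
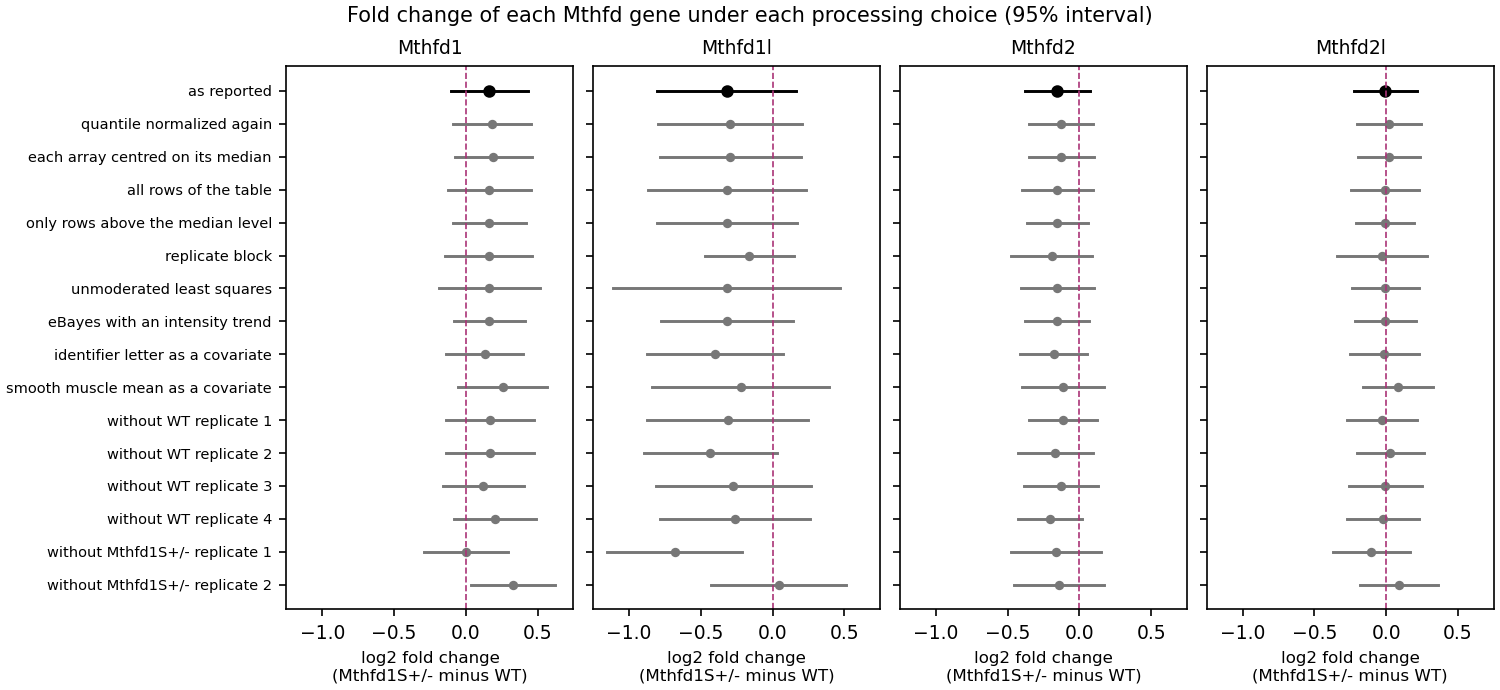
Log2 fold change (Mthfd1S+/- minus WT, horizontal axis) of each Mthfd gene as reported (black) and under each other processing choice or left-out mouse (grey), with 95% intervals as lines. Mthfd1l moves from -0.68 to 0.042 with the Mthfd1S+/- mouse that is left out, while Mthfd2 stays between -0.21 and -0.11 in all settings shown.

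In rank among the 23521 tested clusters, Mthfd1 lay at percentiles 75.7 to 82.1 over the 6 arrays, Mthfd1l at 57.9 to 72.4, Mthfd2 at 58.2 to 63.0 and Mthfd2l at 60.1 to 64.0. All 4 transcripts were thus in the upper part of the clusters in every mouse, and none was among the dimmest. Since a cluster's brightness depends on its probes as well as on the transcript, these ranks place each gene among the array's clusters and do not order the 4 transcripts by abundance. Away from Mthfd1l the spread was ordinary: of the clusters with a similar level, 74.3% varied less within genotypes than Mthfd1, 41.0% less than Mthfd2 and 34.5% less than Mthfd2l.

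No pair of members had a correlation over the 6 mice that passed its test, though with 6 mice strong relations could be missed. In 6 pairs tested, with Pearson's r from -0.60 to 0.35, the r farthest from 0 was between Mthfd1 and Mthfd2, at -0.60 (exact permutation p 0.219, Benjamini-Hochberg adjusted 0.952) and Spearman's rho of -0.31 (exact permutation p 0.564, adjusted 0.919), and r was -0.43 without the 2 mice farthest from the median of Mthfd1. The synthetase genes Mthfd1 and Mthfd1l had an r of 0.19 and a rho of 0.26 (exact permutation p 0.704 and 0.658, adjusted 0.952 and 0.919), and r was 0.70 without the 2 farthest mice. The mitochondrial partners Mthfd1l and Mthfd2 had an r of 0.35 and a rho of 0.14 (exact permutation p 0.528 and 0.803, adjusted 0.952 and 0.919), with an r of -0.33 without the 2 farthest mice. Each r without 2 mice left out those farthest from the median of the first gene named, rests on fewer than 6 mice and has no test. No correlation is reported within a genotype, where there were also fewer than 6 mice.

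The letter in the mouse identifiers of the labels (A or B, of unstated meaning) was shared between genotypes, with 1 mouse of each genotype under A, and 3 WT and 1 Mthfd1S+/- mouse under B. Mthfd1 was 0.32 higher in the Mthfd1S+/- mouse than in the WT mouse under A, and 0.0056 higher under B. Mthfd1l had differences of 0.016 under A and -0.67 under B, and Mthfd2l of 0.16 and -0.12. Mthfd2 had the same sign under both letters, -0.26 under A and -0.13 under B. With the letter as a covariate the differences were 0.13 for Mthfd1, -0.40 for Mthfd1l, -0.18 for Mthfd2 and -0.012 for Mthfd2l, with limma adjusted p values of 0.826, 0.677, 0.709 and 0.990.

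The other genes of folate metabolism gave a frame for these values. Of 27 listed genes 25 were measured, and 14 of them had a higher mean and 11 a lower mean in the Mthfd1S+/- mice, with log2 differences from -0.18 to 0.16 and a median of 0.0091. None had an unadjusted p under 0.05, against 5.79% of all clusters, and none passed the adjusted threshold in limma. Groups did not overlap for 3 of the 25, against 14.0% of clusters. Both Mthfd1S+/- mice lay above all WT mice for Mtrr and Fpgs, and below all of them for the folate receptor gene Folr2 (log2 difference -0.086). The difference of Mthfd1l was larger in size than that of each of the 25, and that of Mthfd1 was exceeded by 1 of them, Ggh.

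Among the cytosolic enzymes 4 of 9 were higher and 5 lower, with a median log2 difference of -0.0042. Mtrr, which reactivates methionine synthase, was at 7.31 to 7.39 in the 4 WT mice (median 7.36) and at 7.51 and 7.42 in the Mthfd1S+/- mice. Both Mthfd1S+/- mice lay above all WT mice, and the difference was 0.11 ± 0.080 (SE; adjusted p 0.895 in limma). Aldh1l1, which oxidises the product of the MTHFD1 synthetase to carbon dioxide, was at 7.56, 7.53, 7.58 and 7.30 in WT and at 7.70 and 6.97 in Mthfd1S+/- mucosa. These 2 values lay above and below the whole WT range, as a gap of the same direction as that of Mthfd1l. Shmt1, the cytosolic enzyme that takes a one-carbon unit from serine, was at 7.999, 7.85, 8.01 and 8.01 in WT and at 8.09 and 7.65 in Mthfd1S+/- mice 1 and 2, again on both sides of the WT range. Ftcd, of histidine breakdown, had a log2 difference of 0.079 ± 0.092.

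Among the mitochondrial enzymes 6 of 9 were higher and 3 lower, with a median log2 difference of 0.054. Shmt2, which supplies the one-carbon units that MTHFD2 oxidises, was at 8.80, 8.72, 8.50 and 8.66 in WT and at 8.90 and 8.63 in Mthfd1S+/- mucosa. Its genotypes overlapped, with a log2 difference of 0.088 ± 0.12 (SE). Sardh, of sarcosine breakdown, had a difference of 0.13 ± 0.097, Amt, of the glycine cleavage system, of 0.12 ± 0.10, and Mtfmt, which formylates the mitochondrial initiator tRNA, of -0.13 ± 0.11. The adjusted p values of these 4 in limma were 0.892 to 0.946.

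Of the genes for folate transport and polyglutamation 4 of 7 were higher and 3 lower, with a median log2 difference of 0.0091. Ggh, which trims polyglutamate tails, was at 8.93, 8.96, 8.84 and 8.82 in WT and at 8.94 and 8.48 in Mthfd1S+/- mucosa, so that only mouse 2 lay outside the WT range. Fpgs, which adds the tails, was above all WT mice in both Mthfd1S+/- mice, with a difference of 0.11 ± 0.083 (SE). The reduced folate carrier gene Slc19a1 had a difference of 0.16 ± 0.13 and the folate receptor gene Folr1 of -0.084 ± 0.084, and the adjusted p values of these 4 were 0.891 to 0.924 in limma.

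**Figure D3:**
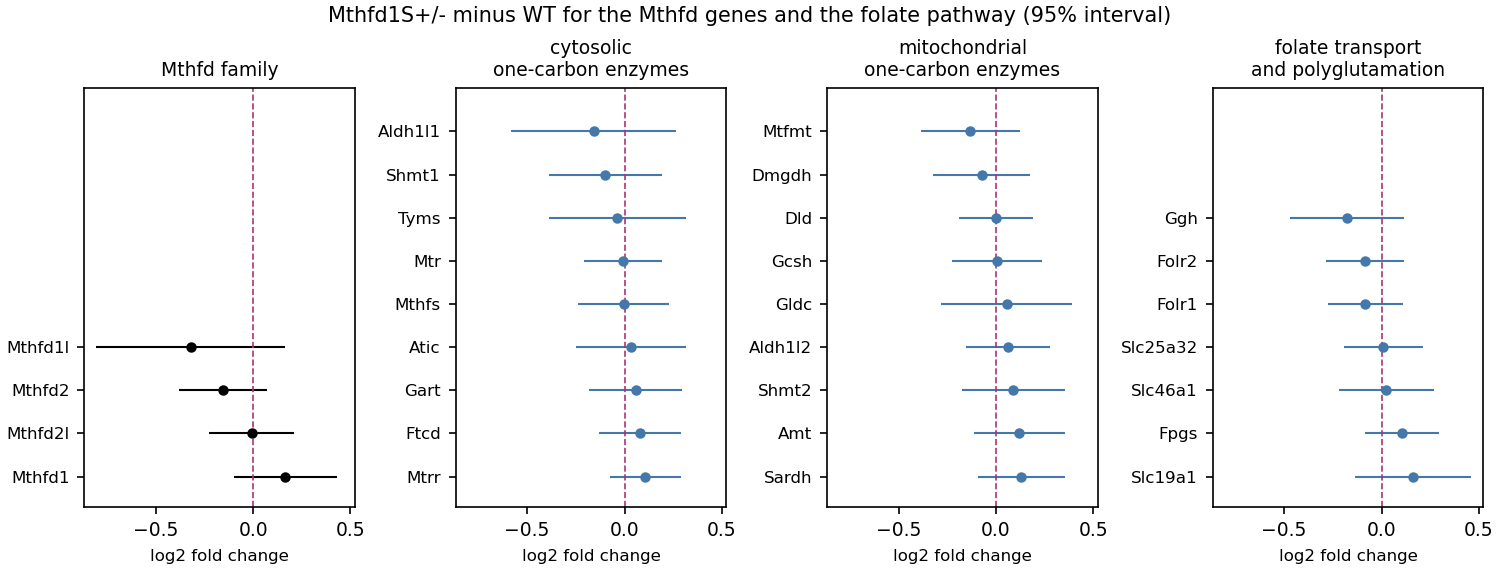
Log2 fold change (Mthfd1S+/- minus WT, horizontal axis) with its 95% interval for the 4 Mthfd genes (black) and the 25 other measured genes of folate metabolism (blue) by compartment or role. Every interval includes 0, and Mthfd1l has the value farthest from 0, -0.32.

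The 2 Mthfd1S+/- mice differed from each other across the pathway. All 4 Mthfd genes and 18 of the 25 others (72.0%) were lower in mouse 2 than in mouse 1, against 52.9% of all clusters. Mouse 2 lay below the WT range for 3 of the Mthfd genes (Mthfd1l, Mthfd2 and Mthfd2l) and for 10 of the 25 others (40.0%), where 21.9% of all clusters did. Mouse 1 lay above the WT range for Mthfd1 and for 10 of the 25 others (40.0%), where 23.7% of all clusters did. Genes of 1 mouse share its array and its tissue piece, so these counts describe the mice and not the genotype.

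Proliferation genes went the same way between these mice: all 15 measured were lower in mouse 2 than in mouse 1, with a list mean of -0.17 against 0.16. In WT mice 1 to 4 that mean was 0.21, 0.067, -0.082 and -0.19, where Mthfd1l was at 7.14, 6.77, 7.25 and 7.29. In the same mice Mthfd2 was at 6.73, 6.57, 6.68 and 6.45, highest in mouse 1 and lowest in mouse 4 as the list mean was. Mthfd1 was at 7.64, 7.63, 7.50 and 7.75, and Mthfd2l at 6.60, 6.78, 6.67 and 6.62. The part of proliferation in the Mthfd values was not tested. Of the smooth muscle, neuron and glia, and fibroblast markers, 0 of 12, 0 of 9 and 0 of 8 were lower in mouse 2 than in mouse 1, while 8 of 10 absorptive colonocyte markers and 1 of 9 goblet cell markers were. The part of tissue makeup in the Mthfd differences was not tested beyond the covariate.

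**Figure D4:**
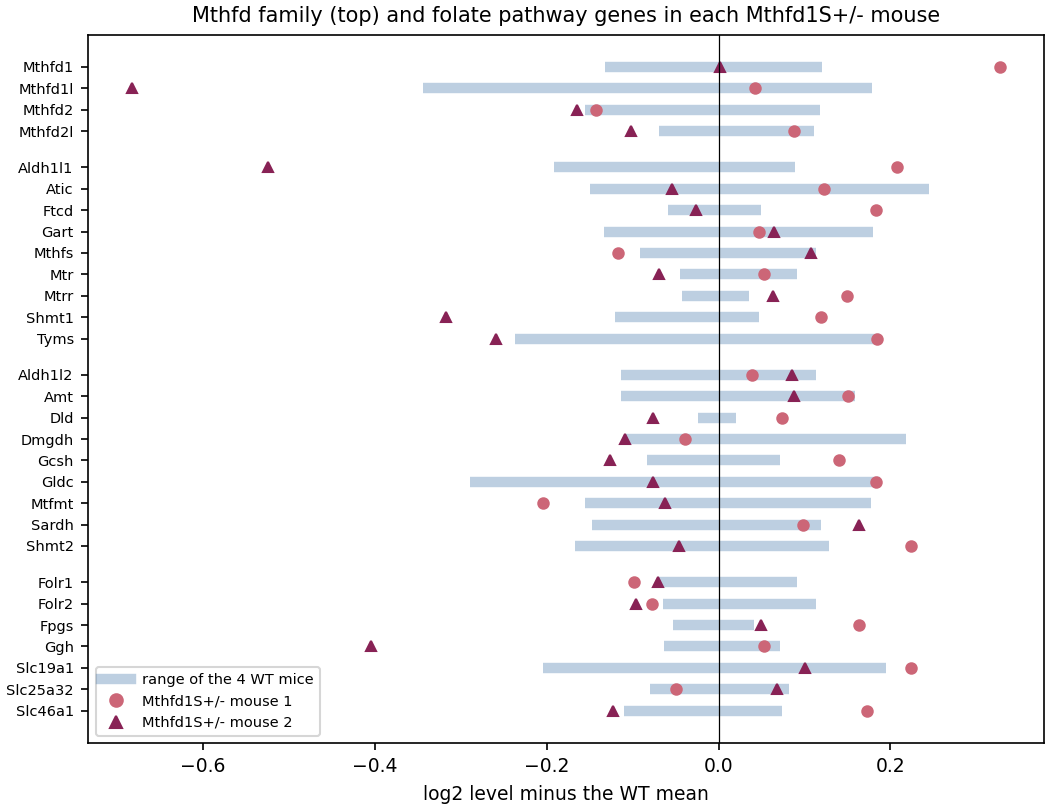
Log2 level minus the WT mean (horizontal axis) in Mthfd1S+/- mouse 1 (circles) and mouse 2 (triangles) for the 4 Mthfd genes (top) and, below, the cytosolic, mitochondrial, and transport and polyglutamation genes, with the range of the 4 WT mice as bars. Mouse 2 lies at -0.68 for Mthfd1l, and all 4 Mthfd genes are lower in mouse 2 than in mouse 1.

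Serine supply and ATF4 target genes were examined because serine feeds the mitochondrial enzymes and because Mthfd2 is induced by the transcription factor ATF4 in mammals. Of 5 serine supply genes 3 were higher and 2 lower, with a median log2 difference of 0.057. Slc1a4, a transporter of serine and other neutral amino acids, was at 8.02, 8.30, 7.88 and 8.01 in WT and at 8.29 and 8.27 in Mthfd1S+/- mucosa, with a difference of 0.23 ± 0.12 (SE; adjusted p 0.858 in limma). WT mouse 2 was higher than both Mthfd1S+/- mice. Phgdh, the first enzyme of serine synthesis, had a difference of 0.076 ± 0.098 and Psat1, the next, of -0.092 ± 0.17.

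Of 13 measured genes in the ATF4 target list, Atf4 included, 7 were higher and 6 lower, with a median log2 difference of 0.020. None had an unadjusted p under 0.05. Atf4 itself was at 7.97 to 8.10 in the 4 WT mice (mean 8.04) and at 8.03 and 8.02 in the Mthfd1S+/- mice. Asns, asparagine synthetase, had a difference of -0.072 ± 0.099 (SE), and Slc7a11, the cystine transporter, of -0.14 ± 0.11. Fgf21, a hormone gene induced by ATF4, had the largest value, 0.22 ± 0.12, with 5.47 and 5.12 in the Mthfd1S+/- mice and 4.97 to 5.18 in WT. Only mouse 1 lay above the WT mice. Of 15 proliferation genes 7 were higher and 8 lower, with a median of -0.0099, and Mki67 had a difference of 0.10 ± 0.14.

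The genes whose pattern over the 6 mice was most like that of each Mthfd gene were sought by Pearson's r among 10620 other named genes with a mean level of at least 6. For Mthfd1 they were Atp5d, a subunit of ATP synthase (r 0.998), Pard3, of cell polarity (0.992), and Ehhadh, of peroxisomal fatty acid oxidation (0.991). For Mthfd1l they were Pilrb1 (0.984), Lactb2 (0.984) and Mvk, mevalonate kinase (0.982). Mvk was at 7.36, 7.20, 7.45 and 7.45 in WT mice 1 to 4 and at 7.44 and 6.89 in Mthfd1S+/- mice 1 and 2, so that it too was lowest in Mthfd1S+/- mouse 2 and lowest of the WT mice in mouse 2.

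For Mthfd2 the nearest genes were Metrnl (r 0.996), Lasp1 (0.995) and Unc13b (0.995), and for Mthfd2l they were Washc3 (0.981), Tigd2 (0.977) and Gnai3, a G protein subunit (0.970). The named genes were picked as those with the highest r of 10620 compared, on 6 arrays. Of these 10620, r was at least 0.95 for 31 genes with Mthfd1, 36 with Mthfd1l, 40 with Mthfd2 and 9 with Mthfd2l. All of these points share the same 6 arrays, and no p is attached to them.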

How the data were processed

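Total RNA from 6 mice, 1 array per mouse, was hybridised to the Mouse Gene 2.0 ST array of Affymetrix. The authors deposited log2 values per transcript cluster, and per the submitters' processing notes the tool was Affymetrix Expression Console, with its version, algorithm, background correction and build not given in the sources used here. Values of 1.06 to 13.5 were taken as log2. Array medians were 5.485 to 5.532. Of 41345 clusters, 23521 with exactly 1 symbol in the platform table were tested, 1814 had several symbols and 16010 none. Where a gene had several clusters the brightest stood for it; each Mthfd gene had 1.

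The genotype test was two-sided, from lmFit and eBayes of limma 3.58.1 (R 4.3.3) without covariates (4 residual and 4.35 prior degrees of freedom) and Benjamini-Hochberg adjustment over all tested clusters, at 0.05. The number of arrays limits precision: the median SE of a log2 fold change was 0.106. The fit was tested on simulated data. Members and lists were chosen with earlier results of these data known. Named were all Mthfd genes, up to 4 genes per pathway list with the smallest unadjusted p, and the 3 genes most like each member. Atf4, Asns and Folr2 lie outside this rule. Atf4 and Asns were named for their roles and Folr2 for its lack of overlap, all after their values were seen. Some genes the rule allows are covered by counts. Promoters of all 4 genes matched the RefSeq table by symbol. Alternatives tried were other scalings, rows, moderation, covariates, the replicate number as a block and leaving out each mouse.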

Additional observations from a re-analysis of the deposited data

Results flagged for a closer look

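Among the 40 genes that the naming rule allows, some of them not named here, the 4 WT mice were screened for a mouse far from the others. Shmt1 alone stood out: WT mouse 2 was at 7.85 on the log2 scale and the other 3 WT mice at 7.999 to 8.01, a gap of 0.908 of the whole range, above Dixon's 95% critical value for 4 samples. Chance flags about 1 in 20 such groups. The groups of 2 Mthfd1S+/- mice could not be screened.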

How the results depend on the processing

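No Mthfd gene passed the adjusted threshold under any of the 15 alternatives, and the number of clusters past it was 0 in each, with 1363 clusters at an unadjusted p under 0.05 as reported and 1220 with unmoderated least squares. The sign of the Mthfd1 and Mthfd2 differences was the same in all 15. With a mouse left out they ranged from 0.0024 to 0.33 for Mthfd1, from -0.68 to 0.042 for Mthfd1l, from -0.21 to -0.11 for Mthfd2 and from -0.10 to 0.088 for Mthfd2l, whose sign also turned without WT mouse 2 (0.030). With 1 Mthfd1S+/- mouse left, that mouse is assumed to vary like the WT mice. Mthfd2l also turned positive after a further quantile normalization (0.021), with arrays centred on their medians (0.020) or with adjustment for smooth muscle (0.084). Clusters at an unadjusted p under 0.05 numbered 2600 over all rows and 675 over rows above the median level, where more and fewer clusters were tested, and 2331 under the replicate block; with a mouse left out they ranged from 1065 to 1932. The labels state no pairing by replicate number, though both mice numbered 1 had the letter A and both numbered 2 the letter B. Deviations from the group means correlated at 0.117 for mice numbered 1 and -0.044 for mice numbered 2. With 2 Mthfd1S+/- mice the deviations of 1 mirror those of the other, so these values cannot show whether the numbers pair mice. With the replicate block the differences were 0.16 for Mthfd1, -0.16 for Mthfd1l, -0.19 for Mthfd2 and -0.028 for Mthfd2l, and 0 clusters passed. Only WT mice had the numbers 3 and 4, so these differences come from the mice numbered 1 and 2 alone. No other cluster carried the symbol of a Mthfd gene, so that alternative could not be run. Signal over background was not used here, so a low level cannot be told from background.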
